A study of Homo sapiens with 4 samples.

Results

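Small Cajal body RNAs (scaRNAs) were examined in a small RNA sequencing experiment on HEK293T cells, a human embryonic kidney line given as HEK293 in the labels. They were defined as every listed feature whose gene symbol begins with SCARNA, whatever its count, which gave 48 of 7062 features. GENCODE named 43 of them by Ensembl identifier, and the other 5, SCARNA2, SCARNA4, SCARNA10, SCARNA15 and SCARNA16, were named by a RefSeq gene at the identical position. Cells were transiently transfected with 1.5 µg of plasmid per well, with 6.6 µl of polyethylenimine as carrier, and were then selected in 2.5 µg/ml α-amanitin for 72 h. α-Amanitin inhibits the endogenous RNA polymerase II (Pol II), and the labels state that cells without plasmid are gone at that time. The plasmid differed between the groups. It carried a wild-type C-terminal domain of Pol II in 52X WT, and in 52X T4A a domain in which threonine at the fourth position of the heptad repeats was replaced by alanine. Each group had 2 libraries, made from total RNA and read as single-end 50 bp reads, and the series describes them as biological replicates. Both groups therefore share transfection and α-amanitin, and untreated cells were not analysed here.

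The libraries held 16180790 and 27370127 counts in 52X T4A and 16195105 and 19159242 in 52X WT, of which 22708 to 53086 fell on scaRNAs. The 4 miRNAs chosen as usual for HEK293 cells summed to between 202600 and 257700 CPM (counts scaled to a common library size) in each library, while the liver, erythroid and leukocyte miRNAs summed to at most 1.01 CPM. The 4 muscle miRNA features summed to 95.9 and 80.7 CPM in 52X T4A and to 30.3 and 32.9 CPM in 52X WT, and the 3 neuronal ones to between 4.36 and 12.1 CPM. The part of these differences in the scaRNA values was not tested.

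scaRNAs are the guide RNAs of the Cajal body, a nuclear compartment in which the small nuclear RNAs (snRNAs) of the spliceosome are modified. C/D box scaRNAs direct 2′-O-methylation and H/ACA box scaRNAs direct pseudouridylation, and mixed scaRNAs carry both kinds of domain. Most human scaRNAs are released from introns of genes made by Pol II, while SCARNA2 is transcribed from a gene of its own. H/ACA scaRNAs end in an ACA triplet close to the 3′ end and carry a CAB box, with the consensus UGAG, in a hairpin loop, which retains them in the Cajal body. SCARNA15, also called ACA45, is further known as an RNA that Dicer can cut into miRNA-like fragments.

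The 5 most abundant members are shown first because they carry most of the signal described here. The capitals mark an ACA that is followed by the last 2 or 3 bases of the feature, and every TGAG, on the sense strand and in DNA letters.
SCARNA15: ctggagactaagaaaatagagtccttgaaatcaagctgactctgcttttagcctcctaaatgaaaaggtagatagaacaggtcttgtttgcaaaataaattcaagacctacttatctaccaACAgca
SCARNA6: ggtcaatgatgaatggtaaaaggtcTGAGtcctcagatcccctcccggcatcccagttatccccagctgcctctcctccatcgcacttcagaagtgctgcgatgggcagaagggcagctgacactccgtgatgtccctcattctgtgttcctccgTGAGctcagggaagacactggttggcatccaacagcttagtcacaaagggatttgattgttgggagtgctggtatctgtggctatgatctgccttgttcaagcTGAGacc
SCARNA3: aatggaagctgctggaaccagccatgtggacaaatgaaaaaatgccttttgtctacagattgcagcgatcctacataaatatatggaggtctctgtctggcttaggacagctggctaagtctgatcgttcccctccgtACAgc
SCARNA13: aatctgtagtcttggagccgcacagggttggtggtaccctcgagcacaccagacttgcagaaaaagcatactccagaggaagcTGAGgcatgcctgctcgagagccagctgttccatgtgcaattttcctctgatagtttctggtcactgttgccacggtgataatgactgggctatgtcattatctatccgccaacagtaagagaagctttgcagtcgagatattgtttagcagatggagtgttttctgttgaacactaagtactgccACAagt
SCARNA16: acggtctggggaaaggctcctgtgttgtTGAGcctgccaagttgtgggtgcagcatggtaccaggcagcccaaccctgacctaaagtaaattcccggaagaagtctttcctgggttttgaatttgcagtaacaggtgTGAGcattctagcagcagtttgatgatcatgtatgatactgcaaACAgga

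The SCARNA15 and SCARNA16 sequences were read from GRCh37. A named copy of each was matched only to the chromosome of its gene, not to the whole genome. The single match there lay inside SNHG21 (chr15:83424697-83424823, plus strand) for SCARNA15 and inside SNHG20 (chr17:75085389-75085575, plus strand) for SCARNA16. The SCARNA6, SCARNA3 and SCARNA13 sequences are GENCODE v44lift37 transcripts. SCARNA15, SCARNA3, SCARNA13 and SCARNA16 show the terminal ACA of an H/ACA RNA, and SCARNA6, a mixed RNA, does not end in one. Among the 18 scaRNAs that lie at a RefSeq SCARNA gene and had a sequence, 14 (77.8%) ended in this way. Over all 45 members with a sequence, copies included, it was 29 (64.4%). Transcripts of snoRNAs, also not limited to gene loci, gave 259 of 399 for SNORA (64.9%) and 18 of 390 for SNORD (4.62%). The letters TGAG occurred in 11 of the 18 (61.1%) and in 27 of the 45 (60%). They occurred in 43.1% of SNORA transcripts and in 79% of SNORD transcripts. They are short enough to recur outside a CAB box.

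Of the 48 features, 21 lay at a RefSeq SCARNA gene, 2 lay inside the longer RefSeq gene SCARNA17 on chromosome 18, and 25 were copies elsewhere in the genome that carry a SCARNA symbol. Another gene on the same strand contained 20 of the 21 loci, the exception being SCARNA2. The hosts included protein-coding genes (PPP1R8, COP1, KHDC4, ATG16L1, KPNA4, HAUS6, NCAPD2, CHD4, PHB2, TIPIN) and small nucleolar RNA host genes (SNHG10, SNHG20, SNHG21). All positions of features are those of the deposited tables, in hg38.

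The members differed widely in level. A mean of at least 10 counts over the 4 libraries was reached by 23 members, of which 16 were loci, 6 were copies and 1 was a chromosome 18 feature inside SCARNA17. Another 15 members had 1 to 20 counts in all 4 libraries together and no more than 11 in any library. They included the loci SCARNA1, SCARNA20, SCARNA21, SCARNA21 on chromosome 1 and SCARNA23, and they held 112 of all 132895 scaRNA counts. The remaining 10 members, all copies, had 0 counts in every library, for which 3 counts, or 0.11 to 0.185 CPM, is the limit that counting error allows. All 7 features named SCARNA20 together held 10 counts.

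SCARNA15 stood far above the other members. Its feature (ENSG00000277864.1, chromosome 15 from 82755945 to 82756071, plus strand, within SNHG21) is an H/ACA RNA known to guide pseudouridylation of U2 snRNA. It held 23162 and 42592 counts in 52X T4A and 16305 and 20833 counts in 52X WT. In every library that was more than all other members combined. It came to 77.7% and 80.2% of the counts of members in 52X T4A and 71.8% and 76.4% in 52X WT. Per kilobase of feature, its mean level of 9914 CPM exceeded that of all 238 H/ACA snoRNAs with counts, the highest of which was at 515, and was exceeded by 9 of 217 C/D snoRNAs. By CPM alone it ranked 100 among the 7062 features. A feature in the scaRNA gene SCARNA9, which has no SCARNA symbol and is described below, held more counts in every library.

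Below SCARNA15, no single member led. In CPM per kilobase, SCARNA3 was at 364.3, SCARNA6 at 255, SCARNA16 at 248.3, SCARNA13 at 172.8 and SCARNA4 at 163.3, followed by SCARNA14 at 126.8 and SCARNA11 at 108.8. Neighbours in this order overlapped over the 4 libraries, except that SCARNA4, at 147.4 or more, stayed just above SCARNA14, at 146.5 or less. Of the C/D scaRNAs, SCARNA2 was at 82.8 and SCARNA7 at 48.8, while the H/ACA loci SCARNA8, SCARNA18 and SCARNA22 were at 13.9, 13.3 and 4.33. The mixed scaRNAs ranged from 10.5 for SCARNA10 through 16.9 for SCARNA5 and 74.0 for SCARNA12 to the 255 of SCARNA6. The median over the 21 loci, with copies left out, was 48.8. It was 3.23 for H/ACA snoRNAs and 201 for C/D snoRNAs with counts. Those snoRNA lists were not limited to gene loci, so the sets are unlike. The reads are short, so these levels count fragments of RNAs that are longer than a read.

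**Figure D1:**
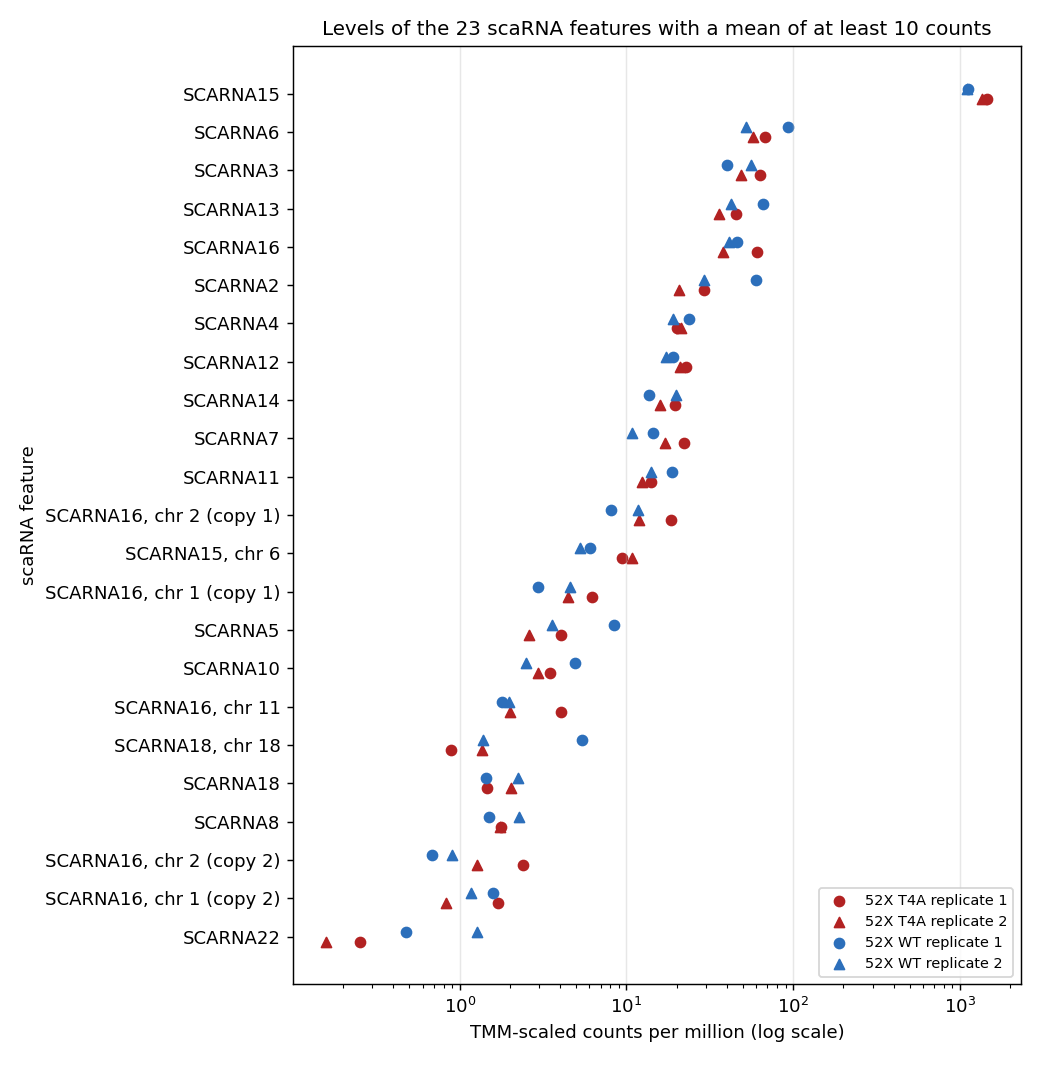
Level of each scaRNA feature in each library, in CPM scaled with TMM factors, on a log axis; red marks 52X T4A, blue 52X WT, circles replicate 1 and triangles replicate 2. SCARNA15 lies between 1107 and 1463 CPM in all 4 libraries, and the next member, SCARNA6, between 52.1 and 92.7 CPM.

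Levels were then compared between 52X T4A and 52X WT, to ask whether the guide RNAs differed with the altered Pol II domain. None of the 22 scaRNAs that passed the filter on low counts was called in the quasi-likelihood test of edgeR at an adjusted p-value below 0.05 and a fold change above 1.5 (adjusted over all 1480 tested features, smallest value for a scaRNA 0.421). Over all tested features 0.135% were called. At an unadjusted p below 0.05 there were 3 scaRNAs, of which 2, copies of SCARNA15 and SCARNA16, were higher in 52X T4A and 1, a chromosome 18 feature, was lower, where the share over all tested features was 3.99% higher and 6.28% lower. DESeq2 called 0 scaRNAs, where it called 2.03% of all tested features. It gave 3 with an unadjusted p below 0.05, where it gave 8.72% of all features. It gave no adjusted p for SCARNA8, SCARNA18 and the chromosome 18 feature. The same held for the SCARNA16 copies on chromosome 11, on chromosome 1 at 101133153 and on chromosome 2 at 196686148. DESeq2 could therefore not call these members. With 2 libraries per group the standard errors of the log2 fold changes ran from 0.2 to 0.6 for scaRNAs, with a median of 0.35. In total RNA from a culture, less RNA per cell and fewer cells that make it cannot be told apart.

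The direction was mixed. The log2 fold change, 52X T4A over 52X WT, was above 0 for 11 of the 22 scaRNAs (50%) and for 46.1% of all tested features. The median was 0.02 for scaRNAs and −0.05 over all features, compared with 0.13 for 115 H/ACA snoRNAs, −0.18 for 166 C/D snoRNAs and −0.05 for 88 Pol II snRNAs. With library size alone the median of all features shifted to 0.14 and that of scaRNAs to 0.19, with 15 above 0. In CPM the groups did not overlap for 9 scaRNAs. They were 7 members higher in 52X T4A (31.8%, against 18.9% of all tested features) and 2 lower (9.09%, against 21.2%). Among the 7, 4 were copies of SCARNA15 and SCARNA16, whose reads may be shared with those genes and with each other, and no test was made of these shares.

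**Figure D2:**
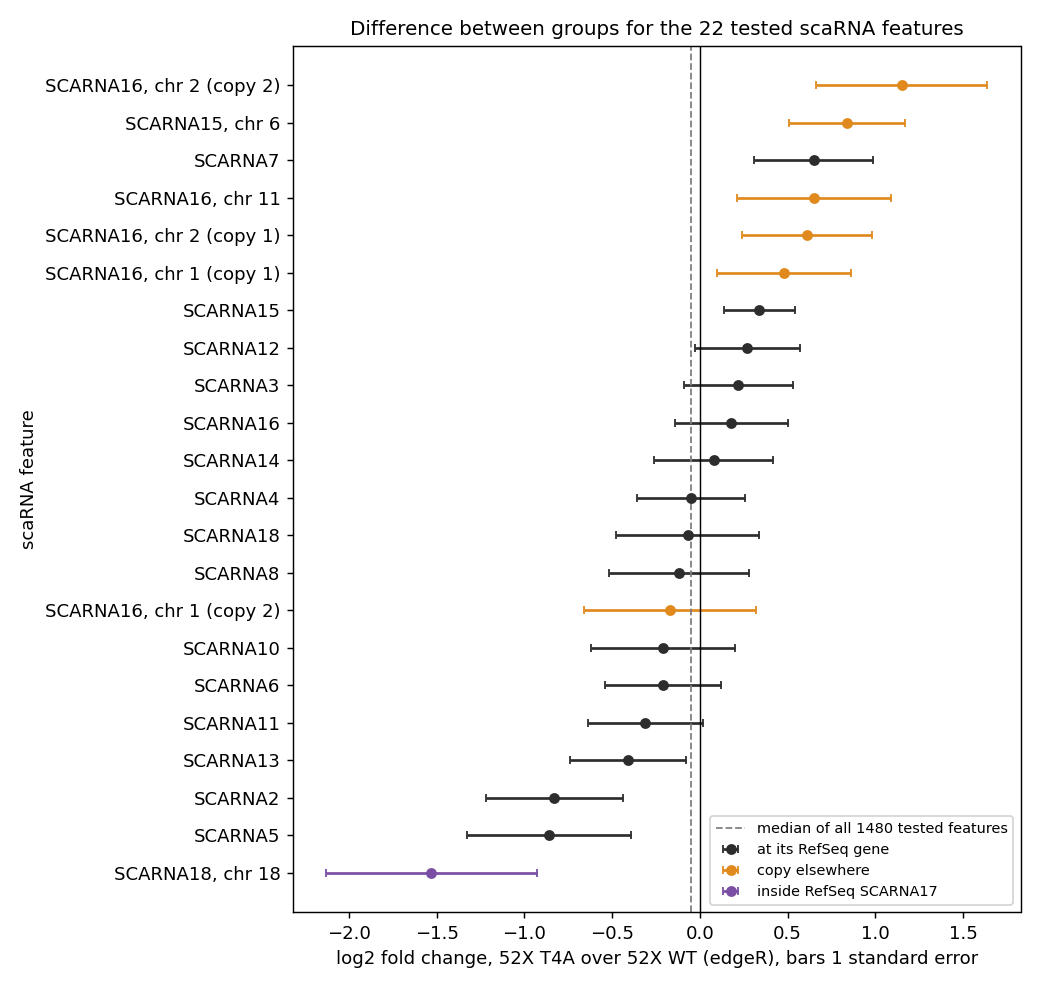
The log2 fold change of each of the 22 tested scaRNAs, 52X T4A over 52X WT, with bars of 1 standard error from edgeR; black marks features at their RefSeq gene, orange copies elsewhere and purple the feature inside SCARNA17, and the dashed line is the median of all tested features, −0.05. The values run from −1.53 to 1.15, and 5 of the 6 copies lie above 0.

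SCARNA15 was the member with the most precise estimate. Scaled with TMM factors, its level was 1463 and 1349 CPM in 52X T4A and 1117 and 1107 CPM in 52X WT. Both 52X T4A libraries were above both 52X WT libraries, and the gap was larger than the spread within either group. The means were 1406 ± 80.9 and 1112 ± 7.57 CPM (SD, n = 2), a ratio of 1.27. The log2 fold change was 0.34 ± 0.20 (SE; adjusted p = 0.521 in edgeR, not called), and it was between 0.25 and 0.41 when each library was left out.

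The same RNA accounted for most of the difference in the summed share of scaRNAs. scaRNAs took 0.184% and 0.194% of all counts in 52X T4A and 0.140% and 0.142% in 52X WT, so that the means differed by 0.0478 percentage points. For SCARNA15 alone the shares were 0.143% and 0.156% against 0.101% and 0.109%, a difference of 0.0447 points. The other 47 members together were at 0.0411% and 0.0383% in 52X T4A and at 0.0395% and 0.0337% in 52X WT, where the groups overlapped. The scale mattered to the size of the difference. As a share of all counts the scaRNA sum was 1.34 times as high in 52X T4A, and as the sum of TMM-scaled CPM, with 1783 ± 143 against 1503 ± 75.5 (SD, n = 2), it was 1.19 times as high. No test was made of the sums, since an exact two-sided permutation test of 2 libraries against 2 cannot give a p-value below 0.333.

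**Figure D3:**
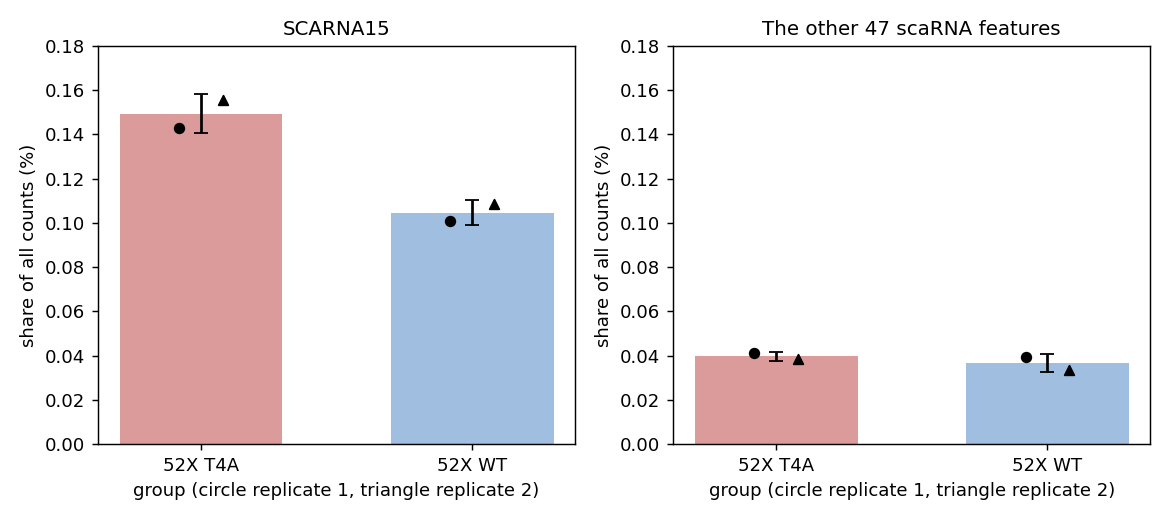
Share of all counts taken by SCARNA15 (left) and by the other 47 scaRNA features together (right); bars are group means from 0, error bars the SD of 2 libraries, circles replicate 1 and triangles replicate 2. SCARNA15 is at 0.143% and 0.156% in 52X T4A and at 0.101% and 0.109% in 52X WT, and the groups overlap for the others.

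Among the other H/ACA scaRNAs, most groups overlapped. SCARNA3 (ENSG00000252906.1, chromosome 1 from 175968398 to 175968540, in COP1) had 998 and 1546 counts in 52X T4A and 586 and 1058 in 52X WT. After scaling, 52X WT replicate 1 was the lowest library and 52X WT replicate 2 lay between the 52X T4A libraries, with a log2 fold change of 0.22 ± 0.31 (SE). That value became −0.11 without 52X WT replicate 1.

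SCARNA13 (ENSG00000252481.1, chromosome 14 from 95533355 to 95533629, in SNHG10), a double H/ACA RNA also called U93, had 722 and 1141 counts in 52X T4A and 960 and 801 in 52X WT. Its highest level was in 52X WT replicate 1 and its lowest in 52X T4A replicate 2, and the log2 fold change was −0.41 ± 0.33 (SE). SCARNA4, a guide for U2 in KHDC4, had 318 and 673 counts against 348 and 358. Its CPM values, 20.1 and 21.3 against 23.9 and 19.0, lay close together, and its log2 fold change of −0.05 ± 0.31 (SE) was the nearest to 0 of any tested scaRNA. That sign turned with upper quartile factors (0.13) and with library size alone (0.14).

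SCARNA14, in TIPIN, had 311 and 500 counts in 52X T4A and 198 and 375 in 52X WT. SCARNA11, in CHD4, had 221 and 392 against 274 and 264. For SCARNA11 both 52X T4A libraries, at 14.0 and 12.4 CPM, were below both 52X WT libraries, at 18.8 and 14.02 CPM, but the margin to 52X WT replicate 2 was narrow and the test did not call the log2 fold change of −0.31 ± 0.33 (SE; edgeR, adjusted p = 0.729). The corresponding value for SCARNA14 was 0.08 ± 0.34 (SE), with overlapping groups, and it turned to −0.27 when 52X WT replicate 1 was left out or to −0.10 when 52X T4A replicate 1 was.

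The scarcer H/ACA loci gave little to compare. SCARNA18, in TMEM167A, had 23 and 64 counts in 52X T4A and 21 and 42 in 52X WT. SCARNA8, a U2 guide in HAUS6, had 28 and 55 against 22 and 43. Their log2 fold changes of −0.07 and −0.12 had standard errors of 0.41 and 0.40, and both were above 0 without 52X WT replicate 2, and also when scaled by library size alone or by upper quartile factors. SCARNA22, in NSD2, had 4 and 5 counts against 7 and 24 and did not pass the filter with all 4 libraries. With 52X WT replicate 1 left out, the remaining 52X WT library was that with 24 counts. SCARNA22 passed the filter of that fit only through this library, where it was high. It was then called lower in 52X T4A, at a log2 fold change of −2.77 ± 0.83 (SE). Since the filter used the value that was tested, that call gives no support for a difference, here or in the count of calls below.

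The 2 C/D loci that were tested had opposite signs. SCARNA2 (ENSG00000278249.1, chromosome 1 from 109100193 to 109100612), which guides methylation of U2, had 464 and 654 counts in 52X T4A and 875 and 549 in 52X WT. In CPM it was at 29.3 and 20.7 against 60.0 and 29.2, so that 52X WT replicate 1 stood apart from the other 3 libraries. The log2 fold change was −0.83 ± 0.39 (SE) and was not called (edgeR, adjusted p = 0.467). Without 52X WT replicate 1 it was −0.33, and without 52X WT replicate 2, which left replicate 1 to stand for its group, it was called at −1.26 (adjusted p = 0.00196).

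SCARNA7 (ENSG00000238741.1, chromosome 3 from 160514907 to 160515236, in KPNA4), the U90 RNA that guides methylation of U1, had 352 and 539 counts in 52X T4A and 210 and 202 in 52X WT. Its levels of 22.2 and 17.1 CPM in 52X T4A were both above the 14.4 and 10.7 CPM of 52X WT. Among the scaRNA loci it had the highest log2 fold change, 0.65 ± 0.34 (SE), which was not called (edgeR, adjusted p = 0.467) and remained between 0.43 and 0.84 when each library was left out.

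Of the mixed scaRNAs, SCARNA5 and SCARNA6 lie in the same host, ATG16L1. SCARNA6 (ENSG00000251791.1, chromosome 2 from 233288676 to 233288940), also called U88, had 1074 and 1819 counts in 52X T4A and 1353 and 981 in 52X WT. SCARNA5, also called U87, had 64 and 82 against 123 and 67. In both, 52X WT replicate 1 was the highest library, and the log2 fold changes were −0.21 ± 0.33 and −0.86 ± 0.47 (SE). Without that library they were 0.17 and −0.23. With 52X WT replicate 2 left out instead, SCARNA5 was called at −1.36 (edgeR, adjusted p = 0.0114).

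SCARNA10, the U85 RNA that guides both kinds of modification in U5 snRNA, had 55 and 93 counts in 52X T4A and 72 and 47 in 52X WT, and its log2 fold change of −0.21 ± 0.41 (SE) turned to 0.26 when 52X WT replicate 1 was left out, while leaving out the other 52X WT library gave −0.63. SCARNA12, in PHB2, had 361 and 659 against 276 and 327. Its CPM values of 22.8 and 20.9 in 52X T4A were above the 18.9 and 17.4 of 52X WT, yet the log2 fold change was only 0.27 ± 0.30 (SE; edgeR, adjusted p = 0.755).

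The chromosome 18 gene SCARNA17, a C/D guide also called U91, was represented by a pair of features. The one named SCARNA17 had 1 and 2 counts in 52X T4A and 0 and 1 in 52X WT. The other, which GENCODE names SCARNA18 (ENSG00000252139.1, chromosome 18 from 49814361 to 49814443, within SNHG22), had 14 and 43 against 79 and 26. Its log2 fold change, −1.53 ± 0.60 (SE), was the lowest of the 22 scaRNAs that passed the filter, and it was not called (edgeR, adjusted p = 0.421). In CPM it was at 0.885 and 1.36 in 52X T4A and at 5.41 and 1.38 in 52X WT, so the distance to 52X WT replicate 2 was slight. Without 52X WT replicate 1 the value was −0.33, and without 52X WT replicate 2 it was called at −2.22 (adjusted p = 5.19e-05).

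52X WT replicate 1 thus took the extremes of many members. Of the 23 members with a mean of at least 10 counts, 8 had their highest and another 8 their lowest CPM in it, compared with 1 and 7 for 52X T4A replicate 2, 10 and 1 for 52X T4A replicate 1 and 4 and 7 for 52X WT replicate 2. Replicates differed by over 1.5-fold for 9 of the 22 tested scaRNAs in 52X WT and for 7 in 52X T4A. The median absolute log2 ratio between replicates was 0.506 in 52X WT and 0.373 in 52X T4A for scaRNAs. Over all 1480 tested features it was 0.426 and 0.314, so the wider spread in 52X WT was not particular to scaRNAs. The count of called scaRNAs was 1 (SCARNA22) without 52X WT replicate 1 and 3 (SCARNA2, SCARNA5 and the chromosome 18 feature) without 52X WT replicate 2, in fits that called 35 of 1636 and 218 of 1570 features in all.

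Of the copies of SCARNA15 and SCARNA16, 6 were tested, and 5 had a log2 fold change above 0. The SCARNA15 copy (ENSG00000252218.1, chromosome 6 from 43544144 to 43544270, plus strand, within POLR1C) matched SCARNA15 at 118 of 127 bases (92.9%), with a longest identical run of 47 bases. Its sequence is shown for comparison with that of SCARNA15, in the same notation, and was chosen after its values had been seen.
SCARNA15 on chromosome 6: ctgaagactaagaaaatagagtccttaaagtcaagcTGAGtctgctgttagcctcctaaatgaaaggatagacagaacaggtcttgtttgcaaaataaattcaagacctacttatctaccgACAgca

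This copy had 148 and 341 counts in 52X T4A and 88 and 99 in 52X WT, or 9.35 and 10.8 CPM against 6.03 and 5.26. The groups did not overlap, and the ratio of the means, 10.1 ± 1.03 over 5.65 ± 0.546 CPM (SD, n = 2), was 1.79. The log2 fold change of 0.84 ± 0.33 (SE) missed the threshold (edgeR, adjusted p = 0.422) and ran from 0.74 to 0.92 when each library was left out. Relative to SCARNA15 itself the copy had 6.39 and 8.01 counts per 1000 SCARNA15 counts in 52X T4A and 5.40 and 4.75 in 52X WT. A read that lies within the shared run matches the copy and the gene equally well, so their counts may share reads, which was not tested. A second copy, on chromosome 20, had 3 and 5 counts against 2 and 5.

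SCARNA16 (ENSG00000275143.1, chromosome 17 from 77089307 to 77089493, in SNHG20 and SEC14L1), a guide for U1, had 955 and 1206 counts in 52X T4A and 668 and 779 in 52X WT. 52X T4A replicate 1 was its highest library and 52X T4A replicate 2 its lowest, and the log2 fold change of 0.18 ± 0.32 (SE) became −0.21 without 52X T4A replicate 1. The symbol is carried by 5 further features, which are 77.5% to 92.5% identical to it with longest identical runs of 27 to 40 bases. They held 35.2% and 34.9% of the counts of all 6 in 52X T4A and 24.8% and 32.9% in 52X WT.

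Of these 5 copies, the most abundant, on chromosome 2 at 53470447, had 291 and 376 counts in 52X T4A and 118 and 220 in 52X WT. The other chromosome 2 copy, at 196686148, had 38 and 40 against 10 and 17, and its log2 fold change, 1.15 ± 0.49 (SE), was the highest of the 22 tested scaRNAs without being called (edgeR, adjusted p = 0.460). The copies on chromosome 11, on chromosome 1 at 9082696 and on chromosome 1 at 101133153 had 64 and 63 against 26 and 37, 98 and 140 against 43 and 86, and 27 and 26 against 23 and 22 counts. The log2 fold changes of these 3 were 0.65, 0.48 and −0.17, and that of the most abundant copy was 0.61. Single libraries moved these values. Without 52X T4A replicate 1 the chromosome 11 copy was at 0.07, the most abundant copy at 0.25 and the copy at 196686148 at 0.64. Without 52X WT replicate 1 the copy at 9082696 was at 0.10 and the most abundant copy at 0.26, and without 52X T4A replicate 2 the copy at 101133153 was at 0.34. For all 5, 52X T4A replicate 1 was the highest library. Their median of 0.61 stood beside 0.02 for the tested scaRNAs and −0.05 for all tested features. The summed level of the 5 was 32.7 and 20.4 CPM in 52X T4A and 15.1 and 20.3 CPM in 52X WT, where 52X T4A replicate 2 and 52X WT replicate 2 were nearly equal.

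By box class and host, the medians ran from −0.21 to −0.05, over wide ranges. The median log2 fold change was −0.05 for 9 H/ACA loci, which ran from −0.41 to 0.34. It was −0.21 for 4 mixed loci, which ran from −0.86 to 0.27. For the 2 C/D loci, at −0.83 and 0.65, it was −0.09. The median was −0.07 for 11 loci in protein-coding genes, of which 4 were above 0. It was −0.12 for 4 members in SNHG genes, of which 2 were above 0. These 4 included the chromosome 18 feature, at −1.53, which lies inside SCARNA17.

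Some further features lie in RefSeq scaRNA genes under other names and were not counted as members. In SCARNA9, a C/D guide for U2, one feature (ENSG00000275146.1, chromosome 11 from 93721542 to 93721621) had 44781 and 93388 counts in 52X T4A and 83316 and 44197 in 52X WT, more than SCARNA15. A feature in the related gene SCARNA9L on the X chromosome differed from it by no more than 4 counts in any library, so that the 2 cannot be told apart by these counts. At 2829 and 2958 CPM in 52X T4A and 5710 and 2348 CPM in 52X WT, SCARNA9 was again highest in 52X WT replicate 1, with a log2 fold change of −0.48 ± 0.35 (SE; edgeR, adjusted p = 0.590) that became 0.21 without that library and −0.98 without 52X WT replicate 2. Another feature at the far end of SCARNA9 had 1471 and 2276 counts against 2291 and 1687. With both SCARNA9 features added, the difference in summed scaRNA share changed from 0.0478 to −0.0186 percentage points, against a replicate spread of 0.148 points. snoU109, at the RefSeq gene SCARNA18B, had 17 and 32 counts against 14 and 20. MIR3609, in SCARNA28, had 59 and 106 against 41 and 47, and MIR6516, which overlaps SCARNA16, had 73 and 76 against 40 and 52. A second feature at SCARNA4 (ENSG00000280466.1) had the same counts as SCARNA4 in every library. In SCARNA9L, snoU2-30 had 114 and 213 against 235 and 170. Its log2 fold change was −0.85 ± 0.38 (SE; edgeR, adjusted p = 0.467), and −0.47 without 52X WT replicate 1.

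A list of RNAs that scaRNAs act on or that share the Cajal body was examined in the same fit. Not every RNA on it is a target of scaRNAs. Of 29 symbols of snRNAs and telomerase RNA, 24 were listed, 23 were tested and 0 were called (edgeR, smallest adjusted p = 0.448, 1 at an unadjusted p below 0.05), while DESeq2 also called 0 and gave 2 at an unadjusted p below 0.05. Over all features, edgeR called 0.135% and gave 3.99% higher and 6.28% lower at an unadjusted p below 0.05, and DESeq2 called 2.03% and gave 8.72%. The median log2 fold change of the list was −0.10, with 5 of 23 above 0, against 46.1% of all features. The list holds several U1 features with near-equal counts, so this number counts similar values repeatedly, and it was not tested. RNU2-2P, a U2 RNA and thus of the kind guided by SCARNA2, SCARNA4, SCARNA8 and SCARNA15, had 1624 and 2386 counts in 52X T4A and 655 and 1159 in 52X WT, and its log2 fold change was 0.74 ± 0.31 (SE), with 0.43 without 52X WT replicate 1. The 6 numbered RNU1 genes and pseudogenes had values from −0.14 to −0.04, with near-equal counts of one another. Their values were from 0.05 to 0.24 without 52X WT replicate 1 and from −0.38 to −0.32 without 52X WT replicate 2. RNU5B-1, a U5 RNA, had 175 and 382 counts against 504 and 225, with 52X WT replicate 1 again the highest and a log2 fold change of −1.0 ± 0.47 (SE), which was −0.13 without that library and −1.57 without 52X WT replicate 2.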

How the data were processed

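The authors deposited 1 table of raw read counts per library, with no normalization, listing the same 7062 small RNA features with position, strand and length. The submitters' processing notes name cutadapt 4.6, Bowtie2 2.3.5.1, featureCounts 1.5.0 and the build hg38. How reads that match several places were assigned was not given in the sources used here. Features were named from GENCODE v44lift37 by identifier (5579) or from RefSeq GRCh38.p14 at an identical position (908), and 575 kept their identifiers. Symbols, hosts and box classes of scaRNAs came from these tables and general knowledge. The members and gene lists were chosen with earlier results of these data known. Members with a mean of at least 10 counts were named with their counts, and sequences were shown for the 5 most abundant.

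Counts were filtered with filterByExpr (minimum count 10), scaled with TMM factors and tested across all features in edgeR 4.0.16 (quasi-likelihood F test, R 4.3.3), with group as the sole term and Benjamini-Hochberg adjustment. A feature was called at an adjusted p below 0.05 and a fold change above 1.5. The standard error was the log2 fold change divided by the square root of F. CPM used TMM-scaled library sizes. The alternatives were other scaling factors, filters and thresholds, DESeq2 1.42.0, a robust fit, a replicate block, removal of abundant features and leaving out each library. Same-numbered libraries are not stated to be paired, and their deviations from the group means correlated at 0.0946. SCARNA15 and SCARNA16 sequences were located with blastn 2.17.0. The test was run on simulated data first. The limit of 3 counts given for features at 0 covers counting error only.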

Additional observations from a re-analysis of the deposited data

How the results depend on the processing

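No scaRNA was called under any alternative that kept all 4 libraries, including DESeq2, which gave no adjusted p for some scarcer members named above. Adjusted p-value thresholds of 0.05 and 0.1 with no fold change threshold also gave none. These thresholds reread the main edgeR fit, where the smallest adjusted p of a scaRNA was 0.421. Counting overlapping members once could change nothing, since 0 pairs of tested members overlapped or had counts within 2% of each other in every library. Reads shared between a copy and its gene would not be seen in this way and were not tested. With the replicate number as a block, an adjustment for pairing that the labels do not state, 0 of 22 scaRNAs were called, 11 were above 0 and the median log2 fold change was 0.03, while 18 features were called in all against 2 without it. Leaving out a library gave 0 to 3 calls, 10 to 14 scaRNAs above 0 and medians from −0.12 to 0.29, where the lone library of a group was assumed to vary like the other group. The cause of these moves was not tested, except that each such fit rests on 3 libraries. With no filter on low counts 20 of 38 scaRNAs were above 0 and 0 were called (smallest adjusted p = 0.0835 in edgeR), while 29 of 3803 features were called in all. The difference in summed share was 0.082 points outside the 5 most abundant features, 0.249 points outside miRNAs, 0.00313 points without SCARNA15 and −0.0186 points with the SCARNA9 features, an alternative chosen after seeing the data. It ran from 0.043 to 0.0526 when each library was left out. Among the 22 tested scaRNAs, 18 of 308 refitted log2 fold changes turned sign, 7 of them with all libraries kept. Those that moved by more than the replicate spread were SCARNA4 at 0.13 with upper quartile factors and 0.14 with library size alone, SCARNA3 at −0.11 and SCARNA14 at −0.27 without 52X WT replicate 1, SCARNA8 at 0.22 without 52X WT replicate 2 and SCARNA16 at −0.21 without 52X T4A replicate 1. With each library left out in turn, the values ran from −0.11 to 0.48 for SCARNA3 and from −0.27 to 0.39 for SCARNA14. They ran from −0.47 to 0.22 for SCARNA8, from −0.21 to 0.49 for SCARNA16 and from −0.2 to 0.03 for SCARNA4. Precision is limited by 2 libraries per group, with standard errors of 0.2 to 0.6.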
